A study of Mus musculus with 15 samples.

Results

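The clustered protocadherin genes are the protein-coding genes of mouse chromosome 18 whose GENCODE M21 symbol begins with Pcdha, Pcdhb or Pcdhg. The rule found 57 members among 21938 protein-coding genes and used the annotation alone. They form the alpha cluster of 14 genes, the beta cluster of 22 genes and the gamma cluster of 21 genes. Of the 57 genes, 5 are C-type genes (Pcdhac1 and Pcdhac2 at the end of the alpha cluster, Pcdhgc3, Pcdhgc4 and Pcdhgc5 at the end of the gamma cluster). The other 52 are alternate genes, of which 12 lie in the alpha cluster, 22 in the beta cluster and 18 in the gamma cluster. The 18 alternate gamma genes comprise 12 of type A and 6 of type B. GENCODE M21 gives the symbol Pcdha11 to 2 alpha genes, which are called here by their identifiers, ENSMUSG00000007440 and ENSMUSG00000102206.

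H3K4me3 ChIP-seq was performed on amygdala tissue of adult male mice of the F1 generation of 129xB6. The series holds 11 H3K4me3 samples and 4 input samples of WT, Kmt2a-HET, Kdm5c-KO and double mutant (DM) mice. The values below come from the peak list of WT mice, which the authors deposited as 1 list for 2 H3K4me3 samples, so they carry no spread between animals. The mutant samples were not analysed here.

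Protocadherins are cadherin-related adhesion proteins of the neuronal surface. In the clusters, each gene has its own promoter and 1 large variable exon that encodes the whole extracellular part, the membrane span and a stretch of the cytoplasmic part. In the alpha and gamma clusters, each variable exon is spliced to constant exons shared by the cluster, whereas a beta gene ends with its own exon. A single neuron is known to transcribe only some of the alternate genes, chosen largely at random for each chromosome copy, and to transcribe C-type genes more uniformly. The proteins bind their own kind on other cells, and the combination in a neuron serves to tell its own branches from those of its neighbours. H3K4me3 is a histone mark found at promoters that are engaged in transcription.

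Each line of the list is a summit 1 bp wide with a score, read here as −log10 of the peak caller's q-value. The score measures the evidence for enrichment over the input at that point and is not a level of the mark. A gene was called marked when a summit lay within 1 kb of any of its annotated transcription start sites (TSSs). Its promoter score is that of the highest such summit. The list holds 24139 summits on chromosomes 1 to 19, X and Y, with a median score of 102 and quartiles of 15.02 and 201. Neuronal marker genes were marked in 8 of 8 cases with a median score of 236, and 0 of 5 genes typical of tissues outside the brain were marked. Astrocyte markers were marked in 5 of 5 cases (median score 67.1), oligodendrocyte markers in 6 of 7 (121.9 among those marked) and endothelial markers in 4 of 4 (27.5). In bulk tissue, fewer cells that carry the mark at a promoter and less of the mark in each cell cannot be told apart.

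Every clustered protocadherin gene had an H3K4me3 summit within 1 kb of a TSS, and nearly all of these summits had a low score. At 6 of the genes, named below, the summit also lay within 1 kb of a TSS of another gene. All 57 genes were marked (100%, 95% Wilson interval 93.7 to 100), against 64.7% of all protein-coding genes. Each of the 57 had exactly 1 summit at its promoter, as did 81.9% of all marked genes, and no summit was shared between members. The median score of the 57 genes was 49.2, with quartiles of 27.4 and 70.5 and a range of 8.07 to 193. The median of all 14197 marked genes was 195, with quartiles of 129.8 and 230.2, and 0 of the 57 reached that median. A score at or above the median of the list was found at 7 of 57 genes (12.3%, 95% Wilson interval 6.08 to 23.2), against 52.0% of all protein-coding genes. In 86.8% of all pairs of a marked gene and a member, the member had the lower score. The intervals cover counting error only, and genes of 1 list are not replicates, so no p-value is given.

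**Figure D1:**
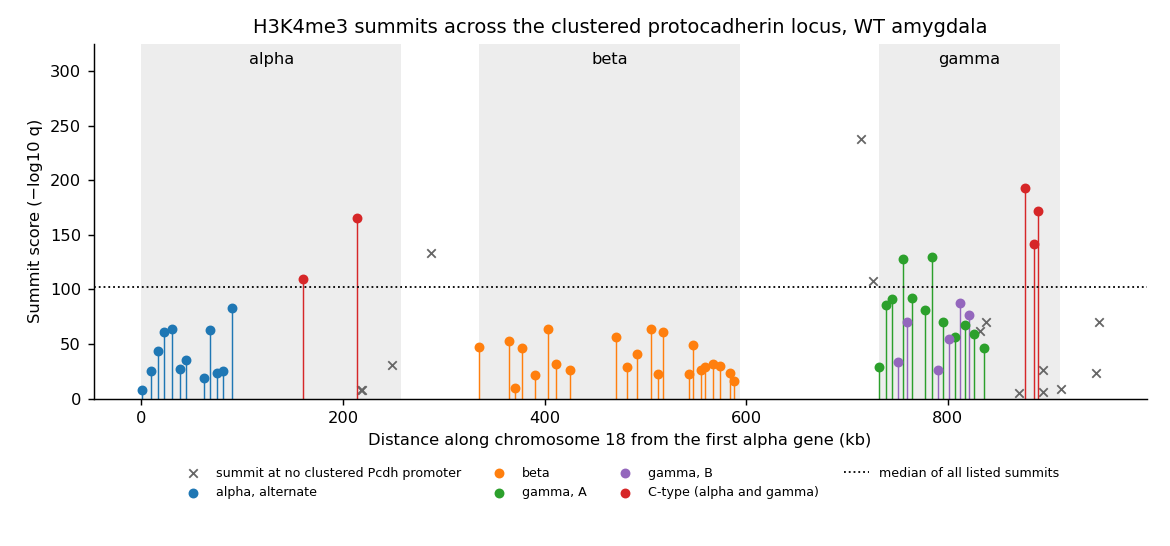
Score of each H3K4me3 summit (−log10 q) against its distance in kb from the first alpha gene, with the 3 clusters shaded. Coloured points on stems are the summits at the 57 clustered protocadherin promoters, crosses are the other summits of the region, and the dotted line is the median of the list (102). The 5 C-type summits stand at 109 to 193, and 50 of the 52 alternate genes lie below the dotted line.

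The C-type genes scored above nearly all alternate genes. Pcdhac1 had a score of 109 and Pcdhac2 a score of 165. In the gamma cluster, Pcdhgc3 had the highest score of all members at 193, Pcdhgc5 had 171 and Pcdhgc4 had 142. The 5 C-type genes thus had a median of 165, and the 52 alternate genes a median of 46.3. A C-type gene scored higher in 99.2% of the 260 pairs of a C-type and an alternate gene. The 52 alternate genes include the 22 genes of the beta cluster, which has no C-type gene. Against the 18 alternate gamma genes alone (median 70.5), a C-type gene scored higher in 97.8% of 90 pairs. Of the 52 alternate genes, 2 scored above Pcdhac1, the lowest C-type gene. Both are type A genes of the gamma cluster, Pcdhga7 (129.6) and Pcdhga4 (127.7). Against all marked genes the C-type genes were not high: a marked gene scored above a C-type gene in 65.9% of pairs. C-type genes are known to be transcribed in most neurons of a kind, and Pcdhgc4 has been tied to neuronal survival.

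The 12 alternate alpha genes had a median score of 31.3, with quartiles of 24.6 and 61.5. The highest were Pcdha12 (82.7), Pcdha5 (64.0) and Pcdha9 (63.2), and Pcdha4 followed with 61.0. The lowest were Pcdha1 (8.07), Pcdha8 (18.8) and Pcdha11 (ENSMUSG00000007440, 23.6). Pcdha1, the first gene of the cluster, had the lowest score of all 57 members, and Pcdha12, the last alternate gene, had the highest of the alternate alpha genes. The genes between them did not rise in order along the chromosome, since Pcdha6 (27.4), Pcdha7 (35.2) and Pcdha8 follow Pcdha5. With its 2 C-type genes, the cluster of 14 had a median of 39.4. The alpha proteins share a constant cytoplasmic end that binds the focal adhesion kinases FAK and Pyk2.

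The 22 beta genes had a median score of 30.6, with quartiles of 24.2 and 48.7, and a range of 10.1 to 64.0. The highest were Pcdhb6 and Pcdhb12, both 64.0, followed by Pcdhb14 (61.0). The lowest were Pcdhb3 (10.1), Pcdhb22 (16.5), the last gene of the cluster, and Pcdhb5 (21.2). Pcdhb1, the first gene, had a score of 47.2. No beta gene reached the median of the list. Beta proteins lack the shared cytoplasmic end of the alpha and gamma proteins. An alternate alpha gene scored above a beta gene in 51.9% of 264 pairs, and the scores of these groups overlapped.

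The 18 alternate gamma genes had a median score of 70.5 and scored above a beta gene in 86.5% of 396 pairs and above an alternate alpha gene in 81.5% of 216 pairs. The 3 highest were Pcdhga7, Pcdhga4 and Pcdhga5 (92.4), with Pcdhga3 next at 90.8. The lowest were Pcdhgb4 (26.3), Pcdhga1 (29.3), the first gene of the cluster, and Pcdhgb1 (33.9). The 12 type A genes had a median of 75.8 and the 6 type B genes a median of 62.7. A type A gene scored higher in 68.1% of 72 pairs, and the ranges of 29.3 to 129.6 and 26.3 to 87.6 overlapped. Pcdhga12, the last alternate gene, had a score of 46.3. With its 3 C-type genes, the cluster of 21 had a median of 76.5, and 5 of its genes reached the median of the list. Scores take steps in such a list, and 21 of the 57 members had a score equal to that of another member.

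**Figure D2:**
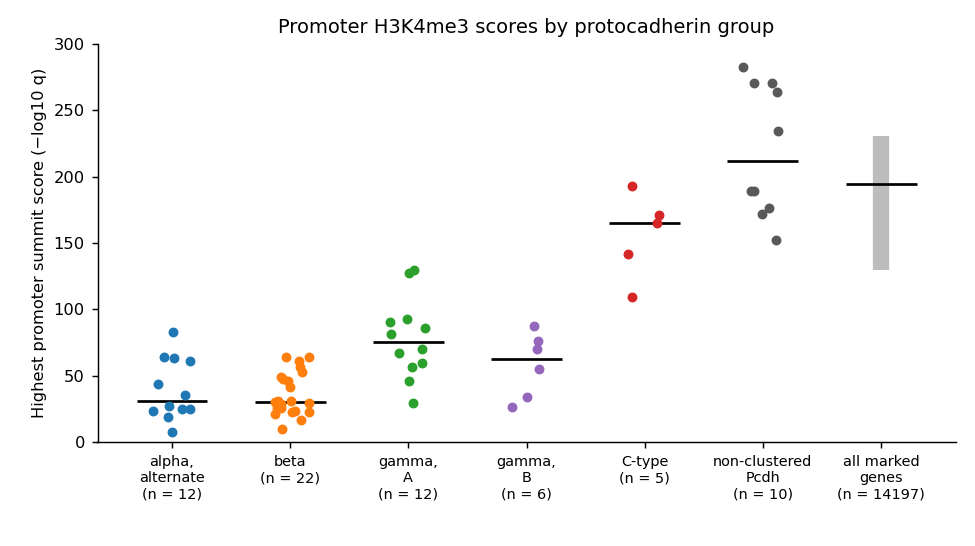
Highest promoter summit score (−log10 q) of each clustered protocadherin gene by group, beside 10 marked non-clustered protocadherin genes. Points are genes and black lines are medians, and for all 14197 marked protein-coding genes the bar spans the quartiles (129.8 to 230.2). The medians of the alternate groups lie between 30.6 and 75.8, that of the C-type genes at 165 and that of the non-clustered genes at 212.

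The non-clustered protocadherins are related genes outside these clusters, though Pcdh1 and Pcdh12 also lie on chromosome 18. Of 12 such genes, 10 were marked, with a median score of 212 and a range of 152 to 282. Pcdh10, Pcdh9 and Pcdh17 had scores of 282, 271 and 271, and Pcdh18 had the lowest score. Pcdh11x and Pcdh12, an endothelial protocadherin, had no summit within 1 kb of a TSS. In 98.8% of the 570 pairs, the non-clustered gene scored above the clustered one.

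The summits of the clustered genes lay at the beginning of the coding sequence. All 57 fell within the first exon of the gene, which for these genes is the variable exon, and all 57 lay downstream of the TSS of the longest coding transcript. The summit lay downstream of that TSS at 11378 of all 14197 marked genes too. At the members, the median distance from that TSS was 217 bp, with a range of 29 to 640 bp. At all marked genes the median was 256 bp, with quartiles of 125 and 495 bp. The summit lay within 300 bp of that TSS at 44 of 57 members and at 41.3% of all marked genes. A gene can be marked at any of its TSSs, so the 41.3% takes in genes whose summit lies at another TSS. For all marked genes this distance ranged from −2856790 to 2099614 bp. Relative to the start codon, the median summit of the members lay 62 bp into the coding sequence, with quartiles of 29 and 127 bp. The summit was within 300 bp of the start codon at 56 of 57 genes. The exception was Pcdhgc5, whose summit lay 457 bp into the coding sequence. The share was 39.0% for all marked genes with an annotated start codon. That set was not limited to genes whose start codon lies near the TSS, and its lower quartile was −2488 bp. The part of gene structure in these contrasts was not tested. At 50 members the summit lay in coding sequence, and at 7 it lay shortly before the start codon. Of these 7, 6 were beta genes (Pcdhb2, Pcdhb4, Pcdhb6, Pcdhb12, Pcdhb14 and Pcdhb16) and the other was Pcdhgb4. Among all 14142 marked genes with an annotated start codon, the summit lay downstream of it at 6947.

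The clusters differed in where the summit fell. The median distance from the start codon was 31 bp for the beta genes, 42 bp for the alternate gamma genes, 135 bp for the alternate alpha genes and 166 bp for the C-type genes. The ranges overlapped, from −48 to 162 bp in the beta cluster and from 37 to 284 bp among the alternate alpha genes. The highest-scoring C-type gene, Pcdhgc3, had its summit 296 bp into the coding sequence. The annotation limits the distance from the TSS more than that from the start codon, because the longest coding transcript of 4 genes (Pcdha1, Pcdha5, Pcdha9 and Pcdhb8) begins at the start codon itself. Among C-type genes, Pcdhac2 had the summit farthest from that TSS, at 632 bp.

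**Figure D3:**
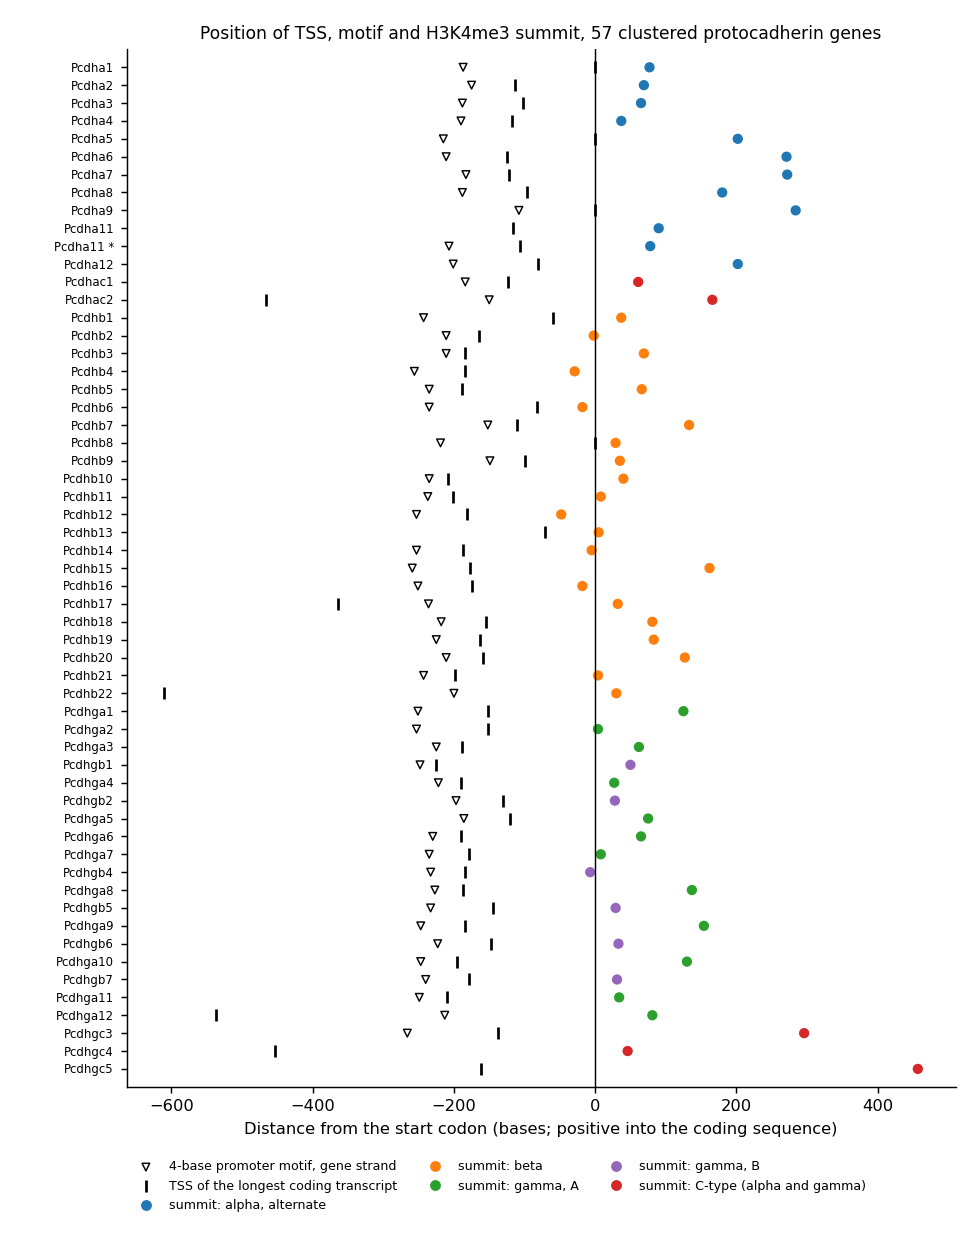
Position of the TSS of the longest coding transcript (bar), of the farthest CGCT on the gene's strand between 100 and 300 bases before the start codon (open triangle) and of the H3K4me3 summit (coloured point) at 57 genes in chromosome order, in bases from the start codon. An asterisk marks the second of the 2 genes with the symbol Pcdha11. The triangles have a median of 225 bases before the start codon, and 56 of 57 summits lie within 300 bases of it.

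Most promoters of these genes, though not all, are known to hold a conserved sequence element with the core CGCT, which belongs to a binding site of CTCF. CTCF is a DNA-binding protein that, with the cohesin complex, brings the promoters into contact with distant enhancers. From 250 bases before to 50 bases after the TSS of the longest coding transcript, which is the TSS meant in the sequence counts below, CGCT was found on either strand at 55 of 57 genes (96.5%, 95% Wilson interval 88.1 to 99.0). The share was 67.9% for all protein-coding genes and 86.1% for marked genes. The 2 genes without it were Pcdhb22 and Pcdhga12, whose longest coding transcripts begin 610 and 537 bases before the start codon. Each has another annotated TSS nearer to it, 122 bases before the start codon at Pcdhb22 and 344 at Pcdhga12, which this window did not use. Measured from the start codon instead, CGCT was found on the gene's strand between 100 and 300 bases before the start codon at 50 of the 52 alternate genes (96.2%, 87.0 to 98.9). This window was chosen after the positions in the members had been seen. On the opposite strand of the same window CGCT was found at 22 of the 52 (42.3%, 29.9 to 55.8). Among marked genes whose TSS lies within 1000 bases of the start codon, the shares were 56.4% on the gene's strand and 57.3% on the opposite strand. The groups differed in this. On the gene's strand and on the opposite one, CGCT was found at 21 and 5 of 22 beta genes and at 11 and 3 of 12 alternate alpha genes. It was found at 18 and 14 of 18 alternate gamma genes, and at 3 and 5 of 5 C-type genes.

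At the alternate genes with a match, the farthest CGCT lay at a median of 225 bases before the start codon, with quartiles of 202.5 and 242.25 bases. The alternate genes without one were Pcdha11 (ENSMUSG00000007440) and Pcdhb13. Of the 5 C-type genes, 3 had a match and Pcdhgc4 and Pcdhgc5 had none. Every member was marked, so marking cannot separate the members with a match from those without. Pcdha11 (ENSMUSG00000007440) and Pcdhb13 had scores of 23.6 and 22.4, below the lower quartile of the alternate genes (26.2). Pcdhgc4 and Pcdhgc5 had scores of 142 and 171, on either side of the C-type median (165). The part of the match in the scores was not tested. A part of the CTCF binding motif, GGNGGCAG on either strand, was found from 250 bases before to 50 bases after the TSS at 1 member, Pcdhb1 (1.75%, 0.310 to 9.29). It was found there at 13.3% of all protein-coding genes. A match of letters is not a binding site, and no binding data were analysed.

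The promoters differed in base composition between the clusters. Within 500 bases of the TSS, the GC content had a median of 55.8% at C-type genes, 46.5% at alternate gamma genes, 45.5% at alternate alpha genes and 41.5% at beta genes. The median was 44.9% over the 57 members, against 58.9% at all marked genes and 55.1% at all protein-coding genes. The C-type genes (50.4 to 58.4%) did not overlap with the alternate genes (33.8 to 49.95%). The observed over expected ratio of CpG dinucleotides had a median of 0.670 at C-type genes, 0.593 at alternate gamma genes, 0.693 at alternate alpha genes and 0.378 at beta genes, against 0.712 at all marked genes. The lowest ratio was that of Pcdhb9 (0.158), which had a score of 56.5. By group medians, the alternate alpha genes had the highest ratio and nearly the lowest score. The C-type genes had the next highest ratio and the highest score, and the beta genes had the lowest of both. The part of the CpG ratio in the scores was not tested. Of the 15645 protein-coding genes whose CpG ratio lay between the lowest and highest values of the alternate genes (0.158 to 0.864), 71.5% were marked, with a median score of 193. This range took in most of the 21938 protein-coding genes and did not match GC content. The median GC content was 55.6% in the range and 44.5% at the alternate genes. The part of base composition in the scores was therefore not tested by it.

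**Figure D4:**
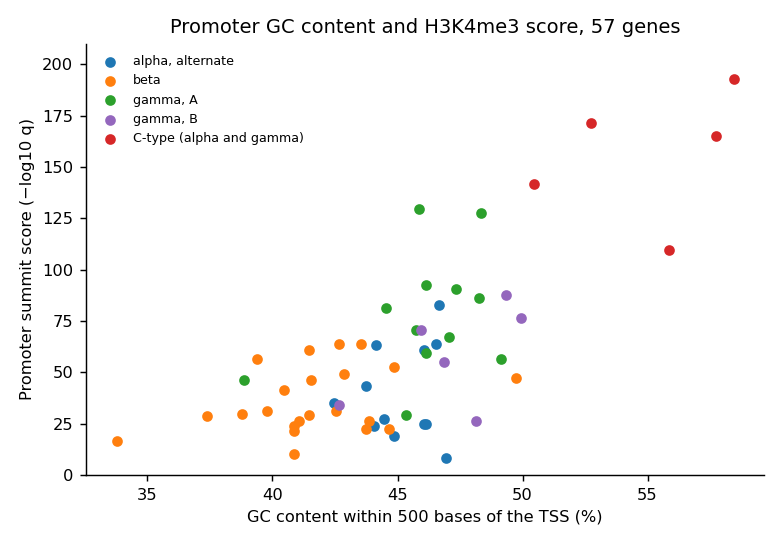
Promoter summit score (−log10 q) against GC content within 500 bases of the TSS, 1 point per gene, coloured by group. The 5 C-type genes lie at 50.4 to 58.4% GC and at scores of 109 to 193, to the right of the 52 alternate genes.

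Across the 57 genes, the score and the GC content had a Pearson r of 0.73 and a Spearman rho of 0.60. Without the C-type genes, r was 0.48 and rho 0.47 over 52 genes. Within the clusters r was 0.33 for the 22 beta genes, 0.32 for the 18 alternate gamma genes and 0.14 for the 12 alternate alpha genes, so much of the relation lay between the groups. The members share 1 pair of libraries and related sequences, and the correlation is given as a description. GC content differed between the C-type and alternate genes as the scores did, and its part in the difference was not tested. The CpG ratio had an r of 0.22 with the score over the 57 genes.

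Reads that fit several places were not kept by the authors, and the clusters hold related exons. The share of 75-base windows within 1 kb of the TSS that fit another place in the genome with at most 2 mismatches was therefore counted. It was 0 at 25 of 57 genes, the 5 C-type genes among them, and above 10% at 23 genes. Those 23 comprised 10 of 12 alternate alpha genes, 9 of 22 beta genes and 4 of 6 type B genes. The highest shares were those of Pcdha7 (37.3%), Pcdha8 (31.3%), Pcdhb7 (25.4%), Pcdha6 (23.9%), Pcdhgb4 (23.1%) and Pcdhb9 (22.9%). The other alpha genes above 10% were Pcdha1, Pcdha2, Pcdha4, Pcdha5, Pcdha12 and both genes called Pcdha11, with shares of 10.4 to 13.4%. The other beta genes were Pcdhb4, Pcdhb5, Pcdhb6, Pcdhb8, Pcdhb10, Pcdhb11 and Pcdhb12 (10.1 to 18.4%), and the other type B genes were Pcdhgb5, Pcdhgb6 and Pcdhgb7 (15.6 to 18.3%).

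Among the alternate genes, the 20 with a share of 0 had a median score of 40.1 and a range of 10.1 to 129.6. The 23 with a share above 10% had a median score of 35.2 and a range of 8.07 to 87.6. Over the 52 alternate genes the share and the score had an r of −0.20 and a rho of −0.07. The 5 C-type genes, all with a share of 0, had a median of 165. The part of such windows in the scores was not tested.

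On GRCm38, the assembly also called mm10, the alpha cluster spans chr18:36930184-37187661, the beta cluster chr18:37264938-37524479 and the gamma cluster chr18:37661793-37841873. These spans of 257.5, 259.5 and 180.1 kb held 65 summits, of which 57 were the promoter summits of the members (87.7%, 95% Wilson interval 77.5 to 93.6). The share of all listed summits that lie at promoters is not given here. Whether the share in the clusters differs from it cannot be said. The TSSs of neighbouring members were a median of 7.32 kb apart in the alpha cluster, 7.76 kb in the beta cluster and 5.35 kb in the gamma cluster. In the beta cluster there was no summit other than the 22 at promoters. The other 8 summits of the locus lay in the alpha cluster (3) and in the gamma cluster (5), and all 8 scored below the median of the list.

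In the alpha cluster, summits at 37148469 and 37149093 with scores of 7.45 and 8.07 lay 4966 and 5590 bp past a TSS of Pcdhac2 and in no annotated exon. The third, at 37178392 (30.9), lay 114 bp past a TSS of Gm10544, a processed transcript of the opposite strand. In the gamma cluster, the summit at 37761874 (61.7) lay 73 bp past one annotated TSS of Pcdhgb8 and 5 bp before the other. Pcdhgb8 is a gene that GENCODE M21 lists as a polymorphic pseudogene and is therefore no member. Its score was within the range of the type B genes. The summit at 37768091 (69.9) lay in overlapping exons of Pcdhga12 and of Gm26672 on the opposite strand, 151 bp past a TSS of the latter. A summit at 37800924 (5.12) lay 5440 bp before Pcdhgc3. The last ones, at 37824374 (5.95) and 37825268 (26.1), lay 15 and 531 bp past the nearest TSSs of Gm38182, which are different ones. Gm38182 is a processed transcript that starts past the TSS of Pcdhgc5.

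Besides the members, 23 genes have their TSS inside the clusters, and 10 of them were marked. For 6 of these the highest promoter summit was that of a member. The summits of 6 members lay within 1 kb of a TSS of a gene on the opposite strand. These were Gm38225 at Pcdha4, Gm37753 at Pcdha6, Gm10545 at Pcdha12, Gm37118 at Pcdhga1, Gm37165 at Pcdhga8 and Gm26672 at Pcdhga11. The list has no strand, so the mark at these places cannot be given to the member or to the other gene. At 5 members a TSS of another gene lay nearer to the summit than the member's own. At Pcdha4 it was that of Gm42416, a protein-coding gene of the same strand, and at Pcdha6, Pcdha12, Pcdhga8 and Pcdhga11 that of the gene on the opposite strand. The other protein-coding genes that start in the alpha cluster, Gm37013 and Gm37388, were not marked. Of 6 pseudogenes, 1 was marked, Pcdhgb8, and the unprocessed pseudogenes Gm36858 and Gm18150 in the alpha cluster were not.

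The genes between and beside the clusters had mixed scores. Zmat2, the nearest protein-coding gene before the alpha cluster, had a score of 223, and Vaultrc5, a small non-coding RNA gene between Zmat2 and the cluster, had 82.7, the score of Pcdha12. Diaph1, a formin that nucleates actin filaments and lies past the gamma cluster, had a score of 225. Taf7, a subunit of the general transcription factor TFIID that lies between the beta and gamma clusters, had a score of 238, and Slc25a2, a mitochondrial ornithine carrier next to it, had no summit. The lincRNA gene 3222401L13Rik, between Taf7 and the gamma cluster, had a score of 107, which lies within the range of the alternate genes. Between the alpha and beta clusters lay a summit at 37217775 with a score of 133, which was 47163 bp before the TSS of Pcdhb1 and in no annotated exon. It scored higher than all 22 beta genes.

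The genes listed here as regulators of the choice of cluster promoter were all marked, as were 64.7% of all protein-coding genes. In this list of 14 genes the median score was 184 and the range 89.2 to 251, against a median of 195 at all marked genes. It holds Ctcf (232), the cohesin subunits Rad21 (171), Smc1a (182) and Smc3 (206), the cohesin loader Nipbl (217) and the cohesin release factor Wapl (251). Smchd1, a chromatin protein that represses clustered protocadherin genes, had a score of 239. The lowest were Dnmt3b (109), a DNA methyltransferase that methylates alternate promoters early in development, and Setdb1 (89.2), a histone H3 lysine 9 methyltransferase.

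Genes for partners of the proteins were marked in 15 of 15 cases, with a median score of 221. They include the kinases Ptk2 (FAK, 211), Ptk2b (Pyk2, 189) and Fyn (200.2), Adam10 (185), which cuts protocadherins at the cell surface, and Nlgn1 (263), a postsynaptic adhesion protein. The members of the WAVE actin complex in the list, which binds cadherin-related receptors, ranged from 179.8 for Abi2 to 256 for Brk1. All 15 lay above the median of the list, as did 13 of the 14 listed regulators of promoter choice and 7 of the 57 clustered protocadherin genes. At or above it were also 52.0% of all protein-coding genes, or 11416 of the 14197 marked ones.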

How the data were processed

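H3K4me3 ChIP-seq was carried out by the authors on nuclei of microdissected amygdala, by native ChIP after micrococcal nuclease digestion with spiked-in synthetic nucleosomes. Single-end reads of 75 bases were aligned to mm10 with Bowtie with up to 2 mismatches, uniquely mapped reads were kept, and peaks were called with MACS2 2.1.0.20140616 against the input. For WT, the deposited file is 1 list of 24162 summits with a score that was taken to be −log10 q. The methods describe the removal of black-list regions beside the count tables of common peaks, and do not say whether it covered this list. The depth behind each score is unknown. Unmatched columns of per-sample values numbered 0.

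TSSs, exons and start codons were taken from GENCODE M21 on GRCm38, and sequence features from the GRCm38 genome. A promoter was 1 kb either side of any TSS of a gene. Shares have 95% Wilson intervals, which cover counting error only. Pairs are all combinations of 1 gene of each group. No p-value was computed, because genes of 1 pooled list are not replicates. The members, the comparison lists, the cell type markers and the tests were chosen with earlier results of these data known. The genes named are all C-type genes, the 3 highest and 3 lowest and the first and last of each cluster, members with over 10% of windows with another placement, and protein-coding genes between or next to the clusters. Other members are named where a sentence turns on them and were chosen after their values were seen. Nucleotide sequences of this chromosome are not printed. The assignment was tested on simulated data, where 200 of 200 summits inside the window and 0 of 200 outside it were assigned. Alternatives covered the window, the score threshold, the TSSs used, joining of summits, assignment to the nearest TSS and Pcdhgb8 counted as a gene. The last was chosen after seeing the data. The genome was indexed with samtools 1.23.1, intervals came from scipy 1.17.1 under Python 3.11.15, tables from pandas 2.3.3 with numpy 2.4.6, and plots from matplotlib 3.10.9.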

Additional observations from a re-analysis of the deposited data

How the results depend on the processing

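Each recomputed value was set against the interval of the reported value. The intervals of medians and of the number of summits outside member promoters are not printed above. Of 77 values recomputed under an alternative, 69 stayed within the interval of the reported value and 8 did not. All 8 came from dropping every summit that scored under the list's median, which by construction removes low summits. Then 12.3% of the clustered protocadherin genes were marked, with a median score of 141.9, 14.3% of the alpha genes (137.2) and 23.8% of the gamma genes (141.9). For the beta genes the share was 0%, so that no median could be given, and the number of summits in the clusters outside member promoters was 0. The 5 C-type genes all stayed marked. A window of 500 bp lost Pcdhac2, and assignment of each summit to the protein-coding gene with the nearest TSS lost Pcdha4. The loss of Pcdhac2 took the marked share of the 5 C-type genes to 80%. That counted as staying within the interval, which for so few genes was wide (56.6 to 100). Counting genes of every type, 5 members had a summit nearer to another gene's TSS. With a window of 3 kb, 1 member had more than 1 summit. No paired analysis was possible because the 2 WT samples were deposited as 1 pooled list and no test between groups was made. For the same reason no replicate could be left out, and the spread between animals and the depth at each summit are not known here.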
